A study of Mus musculus with 5 samples.

Results

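Genes of mitochondrial protein import and the CHCHD family were compared between atria of MRC2 E990G-het mice (het) and wild-type mice (WT). The members are the genes of the authors' deposited comparison table whose symbol starts with Timm, Tomm or Chchd followed by a digit, with pseudogenes left out. That rule found 32 of 14927 genes. Of these, 31 encode proteins and 1, Tomm6os, is an RNA from the strand opposite Tomm6. Each member passed the filter on low counts, so none was lost before testing. The choice used names only and no measured value, although it was made with earlier results of these data known.

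The libraries are stranded, polyA-selected bulk RNA from snap-frozen atria, with the atrial pair of an animal as the unit. There were 3 het libraries (het 5, het 6 and het 7) and 2 WT libraries (WT 7 and WT 8), all from batch 2 of a series that describes 7 het and 8 WT animals aged 4 to 10 months. No other allele or agent is named for either group, and the strain, the sex and the age of each animal are not given in the sources used here. The libraries are labelled as separate samples, and p-values measure the spread between these 5 libraries.

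Nearly all mitochondrial proteins are made in the cytosol and must be carried through the mitochondrial membranes. The TOM complex of the outer membrane is the common entry gate, the TIM23 complex passes proteins with a presequence into the matrix, the TIM22 complex inserts metabolite carriers into the inner membrane, and small TIM chaperones escort hydrophobic proteins across the space between the membranes. CHCHD proteins are small cysteine-rich proteins, many of which are folded in that space by the CHCHD4 (MIA40) oxidation pathway. Atrial muscle is dense in mitochondria, and its respiratory chain depends on this import.

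Total expected counts ran from 17784601 (WT 8) to 28353091 (het 7) per library, and each coding member had at least 162 counts in each library. Atrial identity was plain in all 5 libraries, with Nppa, the atrial natriuretic peptide gene, at 17800 to 20500 CPM (counts scaled to library size) in het and 27100 and 33900 CPM in WT. WT 7 stood apart in sex-linked RNA. It held 938 counts of Y-linked Ddx3y, against 0 to 3 elsewhere, and 22 counts of Xist, against 6117 to 15280 elsewhere. The mean fragment length implied by the deposited transcript lengths and effective lengths was 377, 430 and 395 bases in het 5, 6 and 7, and 343 and 412 bases in WT 7 and 8.

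Because the nuclear regulators of mitochondrial genes act through promoters, the stretch from 250 bases before to 50 bases after the start was searched for 4 short motifs on both strands. RefSeq sequences of build GRCm38.p6 were found for 27 of the 32 members. The motifs were the NRF1 and YY1 consensus sequences, CCGGAAG (the ETS core that GABPA reads) and AGGTCA (the hexamer read by ERR and PPAR receptors). CCGGAAG was found at 10 members, where 8.86% of all 32851 listed promoters hold it, and AGGTCA at 13 members, where 16.3% hold it. The NRF1 motif was found at Chchd4, Timm8b and Tomm20 (4.6% of all promoters) and the YY1 motif at Timm50 alone (0.852%). A match is a run of letters and not a measured binding site. Of the 6 members called lower below, Chchd2 and Chchd7 had no entry, Timm13 had 1 AGGTCA, and Tomm5, Tomm40 and Timm17b had none of the 4 motifs. Shown are Timm13 and Tomm5, which had the most negative folds, Timm8b, the small TIM gene with the highest level, and Tomm70a, the coding member with the highest fold. Capitals mark the motif matches, and in Tomm70a an ETS match and an AGGTCA match on the other strand adjoin.
Timm13 (chr10:80900920-80901219, minus strand): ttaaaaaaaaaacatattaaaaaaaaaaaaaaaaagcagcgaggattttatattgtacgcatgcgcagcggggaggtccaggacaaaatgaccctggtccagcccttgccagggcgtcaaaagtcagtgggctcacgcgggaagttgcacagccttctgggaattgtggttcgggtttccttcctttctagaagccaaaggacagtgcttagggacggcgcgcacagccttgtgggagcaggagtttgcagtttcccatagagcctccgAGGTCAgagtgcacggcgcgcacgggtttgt
Tomm5 (chr4:45108064-45108363, minus strand): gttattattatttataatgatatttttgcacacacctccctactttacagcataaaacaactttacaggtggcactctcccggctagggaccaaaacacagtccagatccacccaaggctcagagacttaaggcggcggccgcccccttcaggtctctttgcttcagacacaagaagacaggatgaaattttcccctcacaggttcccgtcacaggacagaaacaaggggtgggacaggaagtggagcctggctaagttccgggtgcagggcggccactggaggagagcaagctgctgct
Timm8b (chr9:50603651-50603950, plus strand): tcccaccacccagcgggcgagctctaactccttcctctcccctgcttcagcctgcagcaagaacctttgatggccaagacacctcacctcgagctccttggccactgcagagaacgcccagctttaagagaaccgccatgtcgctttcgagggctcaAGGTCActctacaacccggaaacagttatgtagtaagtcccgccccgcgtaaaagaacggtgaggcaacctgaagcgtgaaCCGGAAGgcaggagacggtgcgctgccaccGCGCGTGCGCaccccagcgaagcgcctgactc
Tomm70a (chr16:57121464-57121763, plus strand): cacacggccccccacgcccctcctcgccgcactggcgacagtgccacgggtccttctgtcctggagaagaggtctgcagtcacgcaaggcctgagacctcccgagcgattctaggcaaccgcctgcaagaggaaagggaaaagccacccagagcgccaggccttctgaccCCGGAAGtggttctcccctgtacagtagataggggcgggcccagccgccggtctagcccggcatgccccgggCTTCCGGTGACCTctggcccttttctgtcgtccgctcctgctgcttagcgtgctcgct

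The members spanned a wide range of levels. On the TPM scale, which divides by transcript length and so allows genes to be compared, mean levels over the 5 libraries ran from 6.46 (Chchd4) to 789 (Chchd2) among coding members, and Tomm6os stood at 0.356. Chchd2 and Chchd10, paralogous proteins of the intermembrane space, together made up 42.8% of all member TPM. Next in order were Timm8b (224 TPM), Timm23 (174), Chchd3 (170), Chchd7 (161), Chchd1 (156) and Tomm5 (140). Neighbours in this order overlapped between libraries from Timm23 to Tomm5, so their ranks are not resolved, while Chchd2 lay above Chchd10 in each library. Chchd4, the oxidoreductase of the CHCHD import pathway, was the coding member with the lowest mean level (5.51 to 7.17 TPM), close to Timm8a1 (6.34 to 11.1 TPM) and Tomm70a (6.85 to 11.1 TPM).

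**Figure D1:**
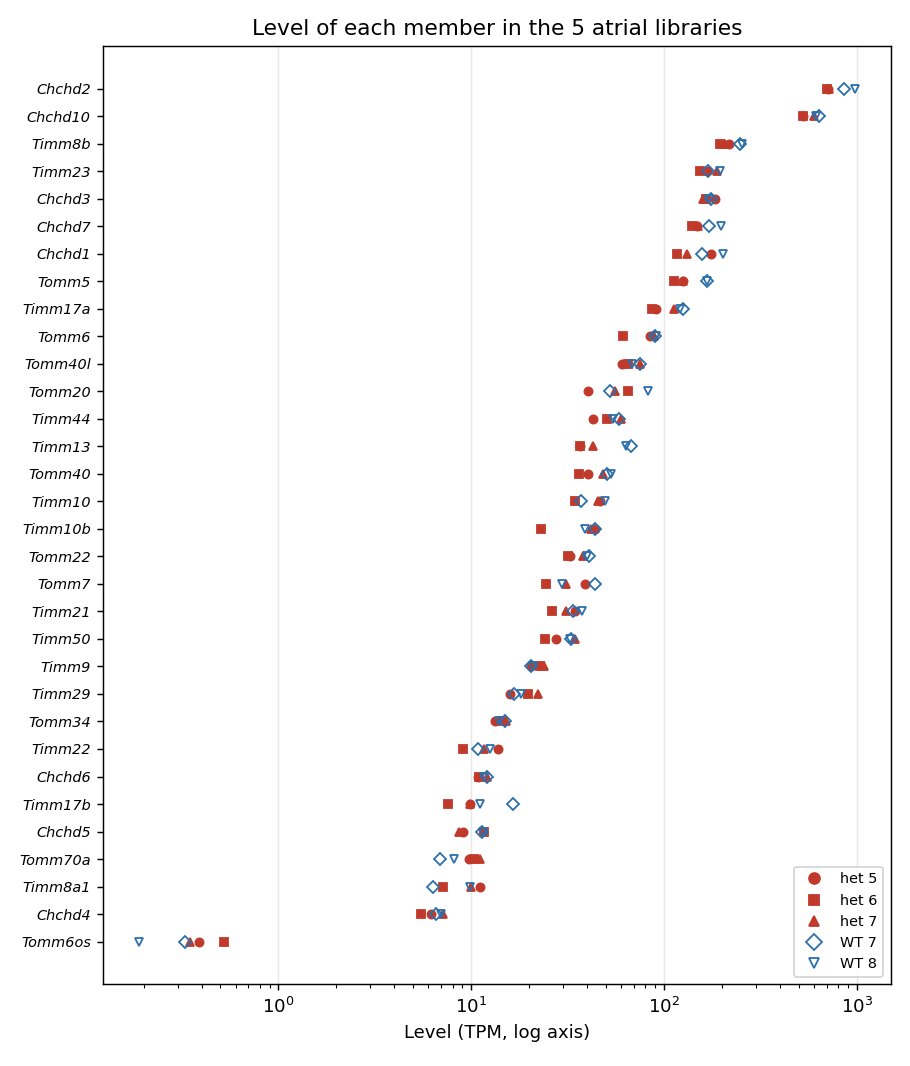
Level of each member in TPM (log axis) in each library, ordered by the mean over the 5 libraries. Red filled symbols are het 5 (circle), het 6 (square) and het 7 (triangle), and open blue symbols are WT 7 (diamond) and WT 8 (inverted triangle); Chchd2 and Chchd10 stand above the rest and the opposite-strand RNA Tomm6os below 1 TPM.

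Summed over the members, TPM were 2987, 2781 and 3107 in het 5, 6 and 7 against 3452 and 3656 in WT 7 and 8, so each het library lay below both WT libraries. In edgeR's quasi-likelihood test 6 members were lower in het at a Benjamini-Hochberg adjusted p under 0.05 (Timm13, Tomm5, Chchd2, Chchd7, Timm17b and Tomm40) and 0 were higher. Over all 16412 genes tested, 2.66% were called lower and 2.99% higher. At an unadjusted p under 0.05, 16 members were lower and 1 higher, beside 11.9% and 12.9% of all genes. Fitted log2 fold changes were below 0 for 27 of the 32 members, beside 50.1% of all genes. The median log2 fold change was -0.33 over the members and -0.001 over all genes. On the CPM scale each het library lay below both WT libraries for 20 members (21.1% of all genes) and above both for 1, Tomm70a (21.1%). On the TPM scale these counts were 11 (11.2%) and 2 (27.7%).

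These calls were not kept when a het library was left out, and 5 of the 6 called genes are shorter than the median tested gene, Timm17b being the exception. Leaving out het 5, het 6 or het 7 left 0 members called in edgeR, and of all genes 0.00613%, 0.0367% and 0% were then called lower and 0%, 0.0306% and 0% higher. With so few of all genes called, these fits cannot show whether the member calls depend on a single library. At an unadjusted p under 0.05, 15, 12 and 13 members were lower in those fits, beside 11.2%, 9.51% and 10.6% of all genes. When any library, het or WT, was left out, the log2 fold changes of the 6 called genes stayed negative. They ran from -1.05 to -0.73 for Timm13 and from -0.61 to -0.39 for Tomm40. Gene length here is RSEM's average over a gene's transcripts, weighted by abundance. With trends on gene length and GC content removed, edgeR called 0 members lower or higher, beside 0.00619% and 0.0371% of all genes. At an unadjusted p under 0.05, 7 members were then lower, beside 5.16% of all genes, and the median over the members was -0.14.

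In bulk tissue, fewer cells of a type and less RNA per cell cannot be told apart. Of 12 cardiomyocyte markers, 1 was higher (Ryr2) and 1 lower (Tnni3), and their summed level was 28029 to 32369 TPM in het and 38689 to 40804 TPM in WT. Per 1000 TPM of that cardiomyocyte sum the members held 107, 92.4 and 96.0 TPM in het 5, 6 and 7, and 84.6 and 94.5 TPM in WT 7 and 8. On this ratio of sums the groups overlapped. The median log2 fold change of the 12 cardiomyocyte markers was -0.13, and -0.08 with length and GC trends removed. Over the members these medians were -0.33 and -0.14. Erythroid markers (7 tested, 0 called) summed to 11767 to 19997 TPM in het and to 2048 and 8751 TPM in WT, and 10 macrophage markers (2 higher, Adgre1 and Cd163) to 296 to 385 against 251 and 256 TPM. The 9 fibroblast markers (1 higher, Lum) summed to 2551 to 2684 TPM in het, to 2531 in WT 7 and to 1448 in WT 8. Skeletal muscle markers (5 tested, 2 lower, Myl1 and Ckm) summed to 820 to 1020 against 1449 and 1486 TPM. Of that list, Ckm and Acta1 are also heart muscle genes. Brown adipocyte markers (7 tested, 0 called), among which Cox7a1 and Cox8b are also muscle respiratory genes, summed to 4450 to 4764 against 6264 and 6406 TPM. Of 8 atrial cardiomyocyte markers Nppa and Myl4 were lower (69212 to 80505 against 89123 and 98934 TPM), and of 4 ventricular ones Myh7 was lower (133 to 536 against 238 and 291 TPM). Taking out length and GC trends moved the median log2 fold change of the atrial list from -0.42 to -0.18. The skeletal muscle median moved from -0.83 to -0.61, the fibroblast one from 0.22 to 0.34 and the macrophage one from 0.31 to 0.41. Sums overlapped for endothelial (763 to 910 against 830 and 1107 TPM, Egfl7 lower), smooth muscle (144 to 177 against 165 and 169 TPM, Tagln lower) and white adipocyte markers (112 to 391 against 204 and 354 TPM, 0 called). The part of any of these in the members' levels was not tested.

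**Figure D2:**
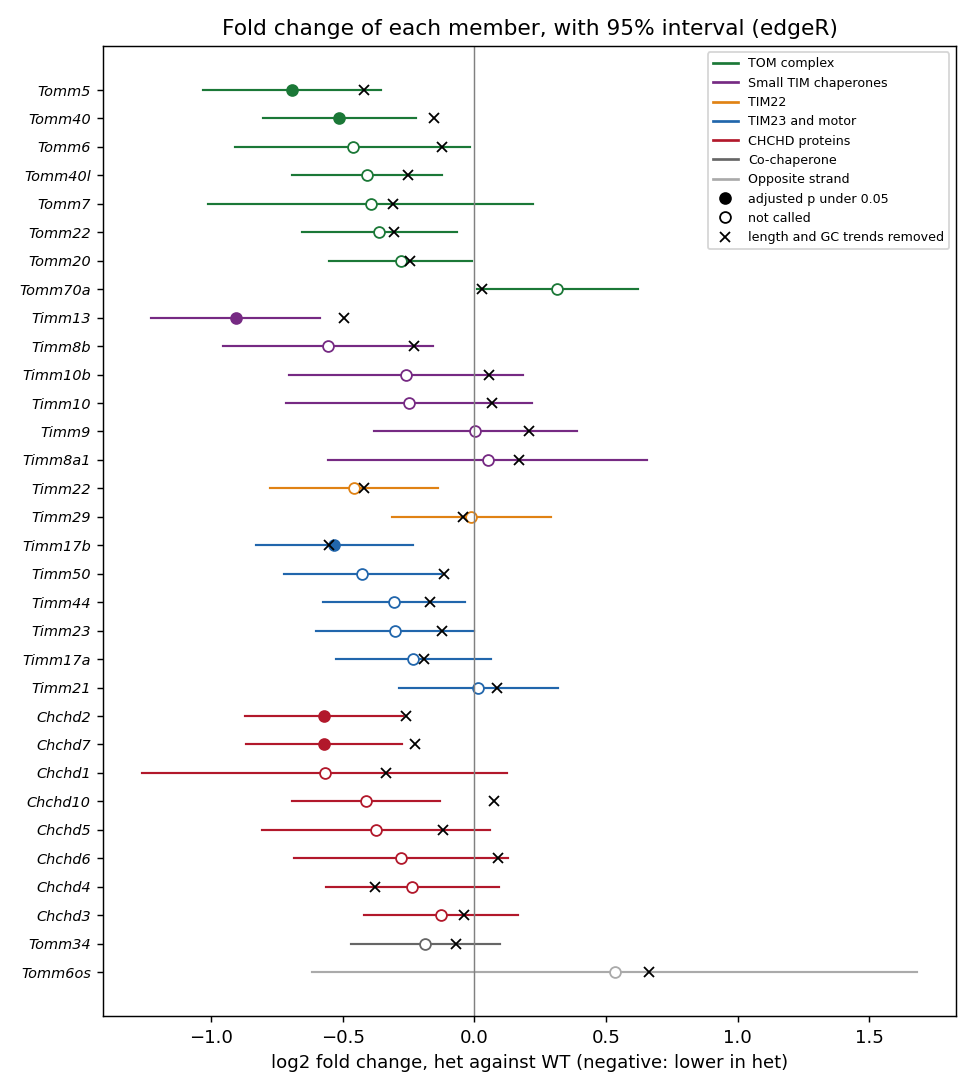
Fitted log2 fold change of each member, het against WT, with its 95% interval (line), grouped and coloured by complex. Filled circles are the 6 members with an adjusted p under 0.05 and crosses are the values with length and GC trends removed; most crosses lie nearer 0 than the circles, while the cross of Timm17b stays at its circle.

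Among the 8 genes of the TOM complex, 2 were lower and 0 higher, with a median log2 fold change of -0.40. Tomm5, a small subunit that helps assemble the complex, stood at 36.6, 25.3 and 30.2 CPM in het 5, 6 and 7 and at 52.1 and 47.2 CPM in WT 7 and 8. It fell by 0.69 on the log2 scale (SE 0.16, edgeR adjusted p = 0.0321), to 61.9% of the WT level. Its fold was -0.42 (edgeR adjusted p = 0.124) once length and GC trends were taken out. Tomm40, the barrel that forms the import pore, stood at 47.2, 42.2 and 52.2 CPM in het and 62.6 and 72.2 CPM in WT. It fell by 0.51 (SE 0.13, edgeR adjusted p = 0.0454), just inside the threshold. Of the 6 called genes Tomm40 stood nearest 0 when length and GC trends were taken out, at -0.15 (edgeR adjusted p = 0.679). Neither gene's groups overlapped.

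Other TOM genes had negative folds that did not pass the adjusted test. Tomm40l, a second pore isoform, had a log2 fold change of -0.41, the central receptor gene Tomm22 -0.36, the presequence receptor gene Tomm20 -0.28, and the small subunit genes Tomm6 and Tomm7 -0.46 and -0.39. Adjusted p in edgeR ran from 0.0804 (Tomm40l) to 0.409 (Tomm7). Tomm70a, the receptor for carrier precursors that dock with cytosolic chaperones, went the other way. It stood at 58.4, 58.1 and 59.0 CPM in het and at 40.3 and 53.8 CPM in WT, with a log2 fold change of 0.32 (95% interval 0.01 to 0.62, edgeR adjusted p = 0.188). The het libraries agreed closely for Tomm70a and the WT libraries did not. Tomm70a is also the longest member by RSEM's gene length, at 5946 bases, and its fold was 0.03 with length and GC trends removed. Summed TOM levels were 406 to 473 TPM in het and 525 and 539 TPM in WT.

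Of the 6 small TIM chaperone genes, 1 was lower and 0 higher. Timm13, which forms a chaperone ring with TIMM8 proteins, had the most negative fold of all members. It stood at 27.1, 21.6 and 25.2 CPM in het 5, 6 and 7 and at 51.4 and 40.9 CPM in WT 7 and 8. Its log2 fold change was -0.91 (SE 0.15, 95% interval -1.23 to -0.59, edgeR adjusted p = 0.0229), or 53.3% of the WT level. The highest het library lay well below the lower WT library, and the TPM values showed the same gap, with 36.5, 36.6 and 42.6 in het and 67.6 and 63.1 in WT. With the effective length of the gene in each library as an offset, an alternative chosen after the data were seen, Timm13 was the member still called (-0.90, edgeR adjusted p = 0.0441), beside 0.0487% of all genes called lower and 0.11% higher. Once length and GC trends were taken out it stood at -0.49 (edgeR adjusted p = 0.0865).

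The partners of Timm13 differed in their values. Timm8b stood at 37.7, 24.2 and 29.0 CPM in het and 48.9 and 40.0 CPM in WT, without overlap, and did not pass the test (-0.56, SE 0.18, edgeR adjusted p = 0.0893). Timm8a1, an X-linked TIMM8 gene, stood at 12.4, 7.25 and 9.82 CPM in het and 7.17 and 11.9 CPM in WT, so the groups overlapped fully (0.05, SE 0.27, edgeR adjusted p = 0.933). Its interval, -0.56 to 0.66, leaves changes of either sign possible. Timm9 and Timm10 encode the other ring of the space, and Timm10b a relative attached to TIM22. Timm9 had a log2 fold change of 0.004 (95% interval -0.38 to 0.39), Timm10 of -0.25 and Timm10b of -0.26, each with an edgeR adjusted p of at least 0.467. With length and GC trends taken out Timm10 and Timm10b turned positive, at 0.07 and 0.06. Whether the Timm13 fold differs from those of Timm9 or Timm8a1 was not tested.

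**Figure D3:**
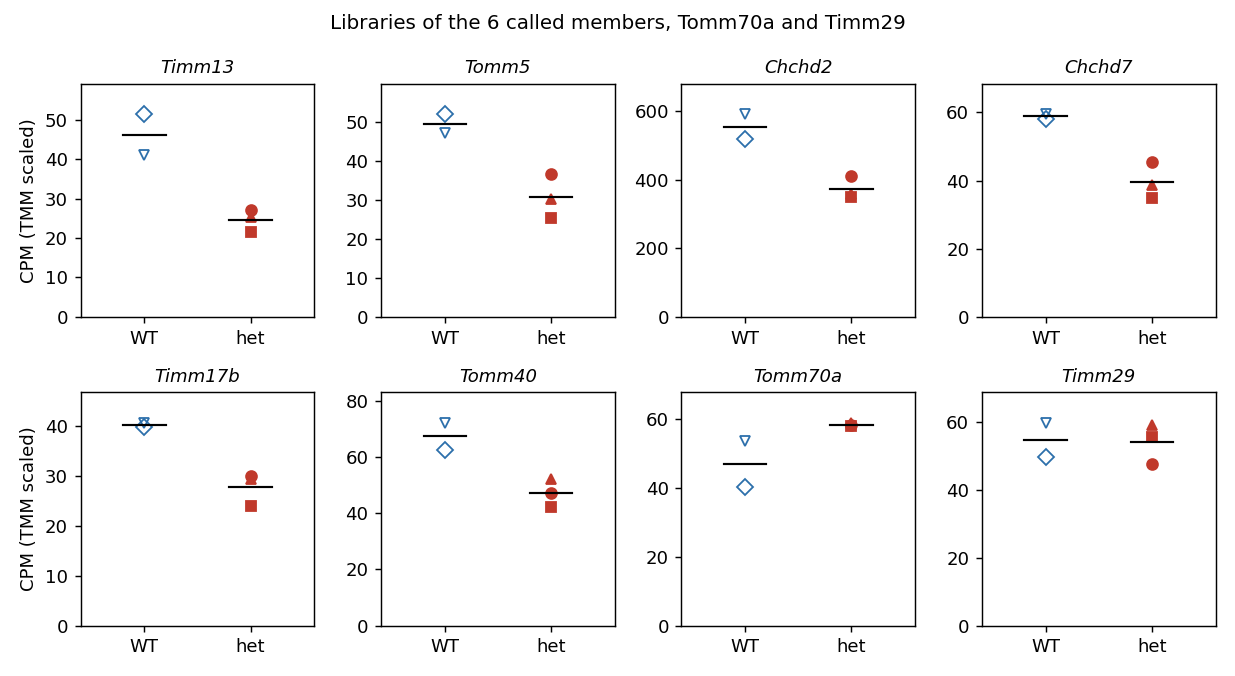
CPM (scaled by TMM, axes from 0) in each library for the 6 called members and for Tomm70a and Timm29. Symbols are as in the plot of levels and bars are group means; het libraries lie below both WT libraries in the 6 called genes, above them in Tomm70a, and overlap with them in Timm29.

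The 2 genes of the carrier translocase TIM22 gave 0 calls. Timm22, the channel subunit, stood at 18.2, 16.8 and 19.9 CPM in het and 23.0 and 27.5 CPM in WT (-0.46, SE 0.15, edgeR adjusted p = 0.0804), with no overlap in CPM. In TPM its groups did overlap, at 9.07 to 13.8 in het and 10.9 and 12.5 in WT. Timm29, which ties the channel to the TOM complex, stood at 47.7, 55.5 and 59.0 CPM in het and 49.5 and 59.7 CPM in WT. Its log2 fold change was -0.01 (95% interval -0.31 to 0.29), and the sign was positive when libraries were scaled by their totals (0.04) or no low-count filter was used (0.04).

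Among the 6 genes of the TIM23 translocase and its motor, 1 was lower and 0 higher, with a median of -0.30. Timm17b, an X-linked gene for one of the paired TIM17 subunits that line the presequence path, stood at 29.9, 24.0 and 29.4 CPM in het and at 39.8 and 40.6 CPM in WT. It fell by 0.53 on the log2 scale (SE 0.14, edgeR adjusted p = 0.0443). Among the called members it alone is long, at 3275 bases, and it kept its size with length and GC trends removed (-0.55, edgeR adjusted p = 0.0878). Its WT libraries were close in CPM but not in TPM, at 16.5 in WT 7 and 11.1 in WT 8, against 7.62 to 9.83 TPM in het. Its autosomal paralog Timm17a, at a mean of 107 TPM the more abundant of the pair, stood at 120, 109 and 115 CPM in het and 119 and 150 CPM in WT (-0.23, SE 0.14, edgeR adjusted p = 0.320).

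Timm23, the partner of the TIM17 subunits, stood at 136, 113 and 135 CPM in het and 145 and 171 CPM in WT (-0.30, SE 0.14, edgeR adjusted p = 0.200). Timm50, the presequence receptor of the inner membrane, had a log2 fold change of -0.43 and Timm44, which anchors the import motor, of -0.30 (edgeR adjusted p = 0.0801 and 0.152). Timm21, which links TIM23 to the TOM complex, stood at 31.5, 29.9 and 27.7 CPM in het and 26.8 and 32.0 CPM in WT. Its log2 fold change of 0.02 (95% interval -0.29 to 0.32) became -0.37 with effective lengths as offsets. Timm21 is spread over several transcripts of unequal length, the main one holding 53.2 to 66.1% of its counts in het and 47.5 and 53.9% in WT.

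Of the 8 CHCHD genes, 2 were lower, 0 higher, and each had a negative fold, with a median of -0.39. Chchd2, which resides in the intermembrane space and takes part in cristae and respiratory chain function, stood at 412, 351 and 360 CPM in het and 519 and 592 CPM in WT. It fell by 0.57 on the log2 scale (SE 0.14, edgeR adjusted p = 0.0391). Its paralog and binding partner Chchd10 stood at 298, 287 and 315 CPM in het and 381 and 416 CPM in WT, without overlap, and did not pass (-0.41, SE 0.13, edgeR adjusted p = 0.0765). The Chchd2 fold was -0.26 once length and GC trends were taken out, and that of Chchd10 was 0.07. Chchd7, a small protein of this family, stood at 45.4, 34.9 and 38.6 CPM in het and 58.1 and 59.5 CPM in WT. It fell by 0.57 (SE 0.14, edgeR adjusted p = 0.0367), and its fold was -0.22 with those trends removed.

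Chchd1, a protein of the mitochondrial ribosome, had as large a fitted fold (-0.57) but a wide spread. Its values were 46.3, 23.6 and 28.5 CPM in het and 45.8 and 51.4 CPM in WT, so het 5 lay among the WT libraries (SE 0.28, edgeR adjusted p = 0.284). Chchd3 and Chchd6, subunits of the MICOS complex that shapes cristae junctions, had folds of -0.13 and -0.28, and that of Chchd6 was 0.09 with length and GC trends taken out. Chchd3 stood at 211, 189 and 174 CPM in het and 198 and 219 CPM in WT (95% interval -0.42 to 0.17, edgeR adjusted p = 0.610). Chchd4 had a fold of -0.24 (edgeR adjusted p = 0.368) and Chchd5 of -0.37 (edgeR adjusted p = 0.274). Summed CHCHD levels were 1666 to 1779 TPM in het and 2025 and 2186 TPM in WT.

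The remaining members fall outside the complexes. Tomm34, a cytosolic co-chaperone of precursor proteins, stood at 22.6, 22.7 and 22.6 CPM in het and 25.6 and 25.9 CPM in WT (-0.19, SE 0.13, edgeR adjusted p = 0.410). Tomm34 was tightly grouped in both genotypes. Tomm6os stood at 1.08, 1.34 and 0.861 CPM in het and 0.902 and 0.584 CPM in WT and had a log2 fold change of 0.53 (95% interval -0.62 to 1.68), against -0.46 for Tomm6 on the other strand. The libraries were stranded, but whether the counting used strand is not given in the sources used here, so reads of this pair may be shared.

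Fold changes followed RSEM's gene length across the transcriptome, and most members are short by that measure. For some members it differs much from the main transcript. Timm17a, at 1470 bases, had a main transcript of 7280 bases with 77.1 to 89.2% of its counts. Tomm20, at 1613 bases, had one of 4902 bases with 92.0 to 95.5% of its counts. Their length classes follow the shorter value. The coding members had a median length of 1263 bases, against 2519 bases over all tested genes, and 25 of the 32 members lay in the shortest 3 of 10 equal length classes of tested genes. In the shortest class the median log2 fold change of all 1643 genes was -0.38 and 9.37% were called lower, and 4 of the 11 members there were called (Timm13, Tomm5, Chchd2 and Chchd7). In the longest class the median was 0.33. Within the coding members the log2 fold change and length had a Spearman correlation of 0.43 over 31 genes, which share the same 5 libraries. Set against the median of its own length class, the fold of 25 members was lower and that of 7 higher, and the median of these differences was -0.12. The differences were -0.63 for Timm17b, -0.52 for Timm13, -0.35 for Tomm40 and -0.31 for Tomm5. Length classes do not account for GC content, and the Tomm40 fold with both trends removed was -0.15. For Chchd2 and Chchd7 they were -0.19 each, and Tomm70a lay on the median of the longest class (-0.02).

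**Figure D4:**
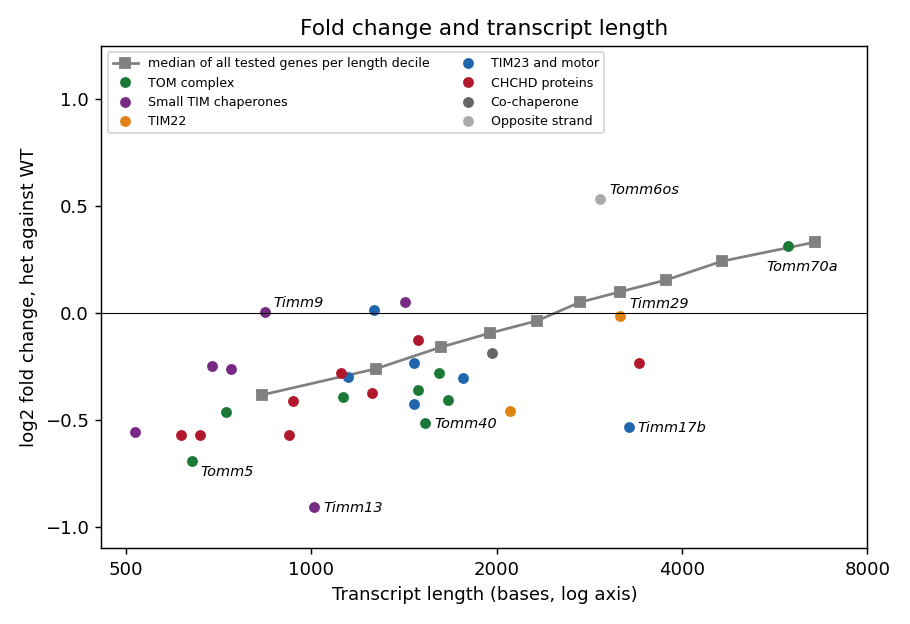
Log2 fold change against RSEM's gene length in bases (log axis, labelled transcript length) for each member, coloured by complex. Grey squares join the medians of all tested genes in 10 length classes, from -0.38 in the shortest to 0.33 in the longest; Timm13 and Timm17b lie farthest below that line and Tomm70a lies on it.

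The main transcript of a member carried most of its counts in many cases. Its share was compared because a change of transcript can change the length or the product. Among the 27 members with more than 1 annotated transcript, the share of the main one did not overlap between groups for 6, where 25.5% of all such genes did not overlap. Chchd6, picked out here after its values were seen, had a second transcript (ENSMUST00000113550, 1042 bases) that held 8.3, 12.5 and 6.7% of its counts in het and 1.0 and 2.5% in WT. The counts behind it were small, 15.1, 21.5 and 16.3 in het and 2.4 and 4.3 in WT, and they are RSEM's estimates. Timm9 was split over 11 transcripts, and its main one held 38.3, 26.7 and 31.8% in het and 43.6 and 39.7% in WT. Timm13, Tomm5, Chchd2, Timm17b and Tomm40 each had 1 transcript with over 90% of the counts in each library.

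Other genes of the import route carry different names. The 21 genes listed with them also include Nup62, a nuclear pore gene, and Timmdc1, a complex I assembly gene. Of the 21 listed, 0 were higher and 2 lower, with a median of -0.21. Over all tested genes, 2.66% were called lower and 2.99% higher, beside this list and those that follow. With het 7 left out, 0% of all genes were called lower or higher, so no call in these lists held there. Pam16, which regulates the import motor beside Timm44, fell by 0.68 (SE 0.17, edgeR adjusted p = 0.0438), from 29.9 and 26.7 CPM in WT to 21.8, 14.4 and 16.7 CPM in het. Mtch1, a carrier-like protein of the outer membrane, fell by 0.49 (SE 0.13, edgeR adjusted p = 0.0467), from 207 and 200 to 141, 133 and 160 CPM. Neither was called with length and GC trends taken out, where Pam16 stood at -0.24 (edgeR adjusted p = 0.469) and Mtch1 at -0.20 (edgeR adjusted p = 0.508). The 19 processing proteases and matrix chaperones had 0 calls and a median of -0.20. The most abundant of them per length, the chaperonin partner Hspe1, stood at -0.38 (SE 0.21, edgeR adjusted p = 0.316).

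Genes for twin CX9C proteins, many of which use the same oxidation route as the CHCHD family, were compared next, together with copper chaperone genes. Of 19 other genes for twin CX9C and copper chaperone proteins 0 were higher and 3 lower, with a median of -0.36. All 3 encode complex I subunits, namely Ndufa8 (-0.59), Ndufs5 (-0.66) and Ndufb7 (-0.64), and in 12 of the 19 each het library lay below both WT libraries in CPM, beside 21.1% of all genes. Taking out length and GC trends gave -0.25, -0.26 and -0.13 for these 3 genes (edgeR adjusted p = 0.430, 0.340 and 0.687) and a list median of -0.13. Of 7 MICOS and cristae genes Micos10 was lower (-0.59, SE 0.15, edgeR adjusted p = 0.0428) and 0 were higher. Micos10 stood at -0.34 (edgeR adjusted p = 0.251) once those trends were taken out. The 12 genes of carriers and other substrates of TIM22 or TIM23 had 0 calls. Slc25a4, the heart isoform of the ADP/ATP carrier and the most abundant of them, stood at 2670, 2480 and 2480 CPM in het and 3290 and 4070 CPM in WT (-0.53, SE 0.15, edgeR adjusted p = 0.0547).

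Among regulators of mitochondrial biogenesis the calls were on the higher side. Of 15 tested, 2 were higher and 0 lower, with a median of 0.22. Ppargc1a, the coactivator that drives mitochondrial gene expression, stood at 113, 105 and 98.6 CPM in het and 57.1 and 71.5 CPM in WT. It rose by 0.72 (SE 0.14, edgeR adjusted p = 0.0252), and stood at 0.41 with those trends removed (edgeR adjusted p = 0.151). Ppara, the fatty acid sensing receptor, stood at 17.1, 16.5 and 21.3 CPM in het and 7.71 and 7.07 CPM in WT. It kept its fold and its call with those trends removed (1.31 and 1.29, edgeR adjusted p = 0.0229 and 0.0301). Neither Ppargc1a nor Ppara was called with het 5 or het 7 left out, where 0% of all genes were called higher.

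Genes that respond to failing import did not include a call on the higher side. Of 13 tested 0 were higher and 2 lower. Mthfd2, a mitochondrial folate enzyme, stood at 2.86, 4.34 and 4.86 CPM in het and 9.51 and 9.23 CPM in WT (-1.21, SE 0.26, edgeR adjusted p = 0.0294). It stood at -1.17 (edgeR adjusted p = 0.0701) once both trends were taken out. Atf5, a transcription factor of the mitochondrial unfolded protein response, had a fold of -0.47 (SE 0.13, edgeR adjusted p = 0.0480) and of -0.14 without those trends.

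In the authors' deposited table, whose animals and model are not given in the sources used here, 0 of 14927 genes had an adjusted p under 0.05, and at an unadjusted p under 0.05 there were 5.6% of all genes and 0 members. The members' log2 fold changes there were below 0 for 24 and above 0 for 8, beside 55.7% of all genes below 0, and their median was -0.085. In the authors' deposited table Tomm40 had the most negative value (-0.51, 95% interval -1.01 to -0.0075, unadjusted p = 0.0864), followed by Timm17b (-0.35). Timm13, at -0.91 in the 5 libraries, stood at -0.075 in the authors' deposited table, Chchd2 at -0.17, Tomm5 at -0.19 and Chchd7 at -0.001. The test statistic in the authors' deposited table is 0 for 29 of the 32 members, as a test against a minimum fold change would give. The p-values there may therefore not test a fold of 0. Counts of genes under a threshold there and here may thus not be alike. The authors' deposited table and the fit over the 5 libraries may share animals, so neither serves as a check of the other.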

How the data were processed

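Reads of 5 bulk atrial libraries were processed by the submitters with Trim Galore, STAR, RSEM and SAMtools on GRCm39, per the submitters' processing notes, without versions. The deposited gene and transcript tables give expected counts, estimated by the authors with RSEM and not normalized, and TPM values, which the authors scaled to effective length and library total. The authors' deposited comparison holds log2 fold changes with intervals, a test score (t) per gene, and p-values. Its model is not given in the sources used here.

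Expected counts were rounded. Of 57186 genes, 16412 passed filterByExpr. After TMM scaling, het was tested against WT with edgeR's quasi-likelihood test (robust), with Benjamini-Hochberg adjustment over all tested genes and a threshold of 0.05. CPM are TMM scaled. Each SE was derived from the fold change and its F statistic. The biological coefficient of variation was 0.18. Other fits used DESeq2, limma-voom (plain or quality weighted) and limma-trend on log2 TPM with a pseudocount of 1 or 0.1. Further fits used other scalings and filters, a Y-linked covariate, and each library left out. Smooth trends in each library on RSEM's gene length, alone or with GC, were also removed (mgcv). GC was known for 98.4% of tested genes from GENCODE transcripts of GRCm38. A fit with effective length offsets was chosen after seeing the data. The code was tested on simulated data.

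Members, gene lists and naming rule were chosen with earlier results of these data known. Values per library are given for called members and, in each complex, for the member with the highest level and those with the lowest and highest fold, and other members were named to complete a complex. Chchd1, Chchd10 and Timm17a were given per library after their values were seen. Of the other import lists, called genes or the most abundant one are named. Gene coordinates in GRCm39 are not used here, and promoter coordinates are RefSeq's GRCm38.p6. Precision rests on 17784601 to 28353091 counts per library. The fits ran in R 4.3.3 with mgcv 1.9.3, DESeq2 1.42.0, edgeR 4.0.16 and limma 3.58.1.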

Additional observations from a re-analysis of the deposited data

How the results depend on the processing

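The number of members called lower (6) was 5 to 8 with other scalings, other filters and DESeq2, where 2.34 to 4.75% of all genes were called lower. It was 2 with limma-voom (1.35% of all genes), 1 with the Y-linked covariate (Timm13; 0.804%) and 1 with effective length offsets (Timm13; 0.0487%). It was 0 with quality weights in limma-voom, in both TPM fits by limma-trend, and with the trend on length, or on length and GC, removed (0 to 0.0609% of all genes). At an unadjusted p under 0.05 these fits had 5 to 13 members lower, beside 4.92 to 11.2% of all genes. Leaving out 1 library gave 0 to 2 members lower and 0 to 1 higher. Without WT 7 (0.784% of all genes lower) these were Timm13 and Chchd2. Without WT 8 (1.66%) they were Timm13 and Tomm5, with Tomm70a higher (0.55). The lone WT library is there taken to vary as het does. Because WT 7 alone was high in Y-linked Ddx3y, the fit with the Y-linked covariate left mainly WT 8 against het. Timm13 stood at -0.73 in that fit and at -0.73 without WT 7. The median over the members kept its sign in all 19 alternatives and moved most with the length trend removed (-0.141) and with length and GC trends removed (-0.138). Leaving out 1 library gave -0.39 to -0.26. Among the called genes no sign turned in any alternative, and Timm13 ran from -1.05 to -0.49 (adjusted p 6.73e-06 to 0.107).

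Signs turned in at least 1 alternative for 9 members. Chchd10 (0.074) and Chchd6 (0.088) turned with length and GC trends removed, and Timm10 (0.072 and 0.069) and Timm10b (0.065 and 0.057) with the length trend and with both trends removed. Timm9, at 0.004, turned in 6 alternatives, down to -0.041. Tomm6os has no value with a mean of at least 1 CPM, which it did not reach. Timm21 stood at -0.027 with upper-quartile scaling, -0.0027 with a mean of at least 1 CPM, -0.227 and -0.233 in the TPM fits with pseudocounts of 1 and 0.1, -0.098 with the Y-linked covariate and -0.369 with effective length offsets. It ran from -0.11 to 0.16 when 1 library was left out. Timm29 stood at 0.036 when scaled by library totals, 0.037 without a filter, and 0.131 and 0.137 in those TPM fits, and ran from -0.14 to 0.14 when 1 library was left out. Timm8a1 stood at -0.222 with the Y-linked covariate and ran from -0.28 to 0.47 when 1 library was left out. Chchd3 stood at 0.046 with the length trend removed. Where no fit shows it, the cause was not tested. No paired analysis was made because the labels do not pair het with WT animals. Depth limits Tomm6os most, at 0.584 to 1.34 CPM.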

Other observations

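Genes of these families outside the authors' deposited table had few or no reads. Tomm20l and Timm8a2, relatives of Tomm20 and Timm8a1, had 0 expected counts in all 5 libraries, which allows up to 3 counts, or 0.106 CPM in the deepest and 0.169 CPM in the shallowest library, for counting error only. The pseudogene Chchd2-ps had at most 2.05 expected counts in any library, while Chchd2 stood at 351 to 592 CPM.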
